A study of Mus musculus with 17 samples.

Results

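The genes described are 10 neighbours on mouse chromosome 9, Aasdhppt, Kbtbd3, Msantd4, Casp12, Dync2h1, Dcun1d5, Tmem123, Birc2, Birc3 and Yap1, out of 23420 genes in a table of RNA-sequencing counts. They were chosen by symbol from a stretch of the chromosome in which levels differed between libraries, with their values in all 17 libraries known. Their own levels and differences are therefore given as a description. No p-value is printed for them, and nothing is read from counts of them called at a threshold. All libraries come from cells of C57BL/6 mice that carry a knock-in of R172H, a missense mutation of the tumour suppressor p53. There were 4 second-generation tumour lines (TL2), derived from tumours that grew after injection of first-generation lines, and 6 first-generation tumour lines (TL1), derived from tumours of the stem cells. Their comparison group was 3 bone marrow mesenchymal stem cell cultures (MSC). A further 2 clones of first-generation lines in which p53 was knocked out (KO clones) stood beside 2 clones that kept mutant p53 (Mut clones). The labels give MSC and tumour lines a number from 1 to 3 without saying what it marks. Lines of 1 generation that share a number are told apart below by a letter, as in TL1 2a and TL1 2b, which carries no further meaning.

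Total counts per library lay between 12215025 and 15962341. MSC were grown in a stem cell medium, and tumour-derived cells on agar-coated plates with leukemia inhibitory factor, so cell type and culture cannot be told apart in that comparison. The labels do not say from which tumour line a clone was made, nor whether replicates are separate animals or separate dishes, so p-values rest on differences among libraries of a group that may be technical in origin. Over 10 mesenchymal stromal markers, the summed level was 1130 to 8970 CPM (counts scaled by TMM to one library size) in TL2, 1180 to 4370 CPM in TL1 and 17600 to 25600 CPM in MSC, with all 10 detected in each group. The 4 epithelial markers summed to 2.20 to 309 CPM in TL2, 6.29 to 64.3 CPM in TL1 and 0.456 to 1.70 CPM in MSC. Both sums thus moved with the comparison of tumour lines and MSC, and their part in its results was not tested. Pdgfrb, Pdgfra, Cxcl12, Thy1, Eng, Col1a1 and Col1a2 were lower in every tumour line than in MSC. Nt5e, Vcam1 and Lepr overlapped, and Nt5e reached 55.6 CPM in TL1, against at most 3.07 CPM in MSC. Krt8 and Krt18 were higher in every tumour line, while Epcam and Cdh1 overlapped. Of 8 macrophage and haematopoietic markers, 6 were in the table and summed to 3.46 to 31.2 CPM across the 5 groups, and the pan-leukocyte gene Ptprc was at most 0.418 CPM in any library. Trp53, which encodes p53, had 80.8 and 89.6 CPM in KO clones, against 280 and 358 CPM in Mut clones.

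Yap1 encodes a transcriptional co-activator that the Hippo kinase cascade holds out of the nucleus; in the nucleus it binds TEAD factors and drives genes of growth and matrix contact. Birc2 and Birc3 encode the cIAP proteins, ubiquitin ligases at tumour necrosis factor receptors that favour cell survival and restrain the non-canonical NF-kB pathway. Yap1, Birc2 and Birc3 lie close together in mouse and human, and the segment that holds them is known from mouse and human tumours as a recurrent DNA amplification. DNA copy number was not measured in these libraries, which report RNA.

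By GENCODE spans on GRCm38 the 10 genes run from Aasdhppt (chr9:4294793-4309471, minus strand) to Yap1 (chr9:7931999-8004596, minus strand). Between Birc2 (chr9:7818227-7837064, minus strand) and Birc3 (chr9:7848699-7873186, minus strand) lie 11634 bases, and between Birc3 and Yap1 58812 bases. Aasdhppt and Kbtbd3 (chr9:4309833-4331732, plus strand) are read away from each other across 361 bases, and Dync2h1 (chr9:6928503-7184446, minus strand) and Dcun1d5 (chr9:7184520-7208205, plus strand) across 73 bases. Among the 28 other annotated genes of the chromosome up to 12 Mb are matrix metalloproteinase (Mmp) genes, which lie between Dcun1d5 and Tmem123.

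The promoters of Yap1, of Birc2 and of the Aasdhppt and Kbtbd3 pair are shown because Yap1 and Aasdhppt are the outermost of the 10 genes and Birc2 was the gene closest to Yap1 in profile. Each is the 250 bases before a RefSeq start on GRCm38.p6, printed in the direction of the gene named. Capitals mark the motifs found on either strand among GGAATG (bound by TEAD factors), TGACGTCA (the cyclic AMP response element), GGGCGG (the GC box), TGANTCA (AP-1) and the NF-kB consensus; matches may overlap.

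Yap1, chr9:8004597-8004846, minus strand: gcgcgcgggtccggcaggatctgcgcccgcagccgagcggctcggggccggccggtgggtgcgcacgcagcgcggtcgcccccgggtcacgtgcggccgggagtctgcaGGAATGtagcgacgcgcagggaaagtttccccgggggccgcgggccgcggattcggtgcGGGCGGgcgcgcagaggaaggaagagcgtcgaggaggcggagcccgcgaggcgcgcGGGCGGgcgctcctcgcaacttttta

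Birc2, chr9:7837058-7837307, minus strand: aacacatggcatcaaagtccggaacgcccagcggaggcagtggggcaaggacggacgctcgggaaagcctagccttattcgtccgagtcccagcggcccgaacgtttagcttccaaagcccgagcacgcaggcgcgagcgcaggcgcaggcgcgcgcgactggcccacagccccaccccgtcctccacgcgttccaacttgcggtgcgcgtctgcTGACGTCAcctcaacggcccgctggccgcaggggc

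Aasdhppt, chr9:4309495-4309744, minus strand: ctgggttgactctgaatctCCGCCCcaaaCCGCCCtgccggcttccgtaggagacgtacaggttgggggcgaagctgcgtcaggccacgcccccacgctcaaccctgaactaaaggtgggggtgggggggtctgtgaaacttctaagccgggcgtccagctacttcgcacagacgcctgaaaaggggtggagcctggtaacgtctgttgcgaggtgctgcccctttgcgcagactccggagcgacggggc

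The Yap1 promoter held 1 GGAATG, 136 to 141 bases before the start, and 2 GC boxes. GGAATG occurs in 12.6% of the 32851 RefSeq promoters of this length. The Birc2 window printed, 1 of 2 RefSeq promoters of the gene, held 1 cyclic AMP response element, 28 to 35 bases before the start, a motif found in 1.55% of promoters. The other Birc2 window (chr9:7836807-7837056) held none and had 2 GC boxes. The Aasdhppt window, which lies within the 361 bases shared with Kbtbd3 but does not fill them, held 2 GC boxes near its far end. A Kbtbd3 window that reaches further (chr9:4309566-4309815) held 3, and GC boxes occur in 32.7% of promoters. Over the 14 RefSeq promoters of the 10 genes, the Yap1 window had the highest GC content at 76.4% and the Casp12 window the lowest at 39.2%, against a median of 52.4% over all promoters. TGANTCA and the NF-kB consensus were in none of the 14, and occur in 6.75% and 0.356% of all promoters.

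Yap1 RNA was many times the MSC level in 5 of 10 tumour lines and in both KO clones. It measured 2030 CPM in TL2 2a, 1380 CPM in TL2 2b, 2550 CPM in TL1 2a, 2650 CPM in TL1 2b and 1320 CPM in TL1 1a. In the other tumour lines it measured 96.4 CPM in TL2 1, 136 CPM in TL2 3, 172 CPM in TL1 1b, 185 CPM in TL1 3a and 128 CPM in TL1 3b. The MSC libraries had 205, 195 and 172 CPM. All 4 lines with number 2 were thus above every MSC library, at 7.20 to 13.9 times the MSC mean, whereas no line with number 3 was, and of the lines with number 1 TL1 1a was and TL2 1 and TL1 1b were not. In bulk RNA, fewer cells that express a gene and less RNA per cell cannot be told apart.

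**Figure D1:**
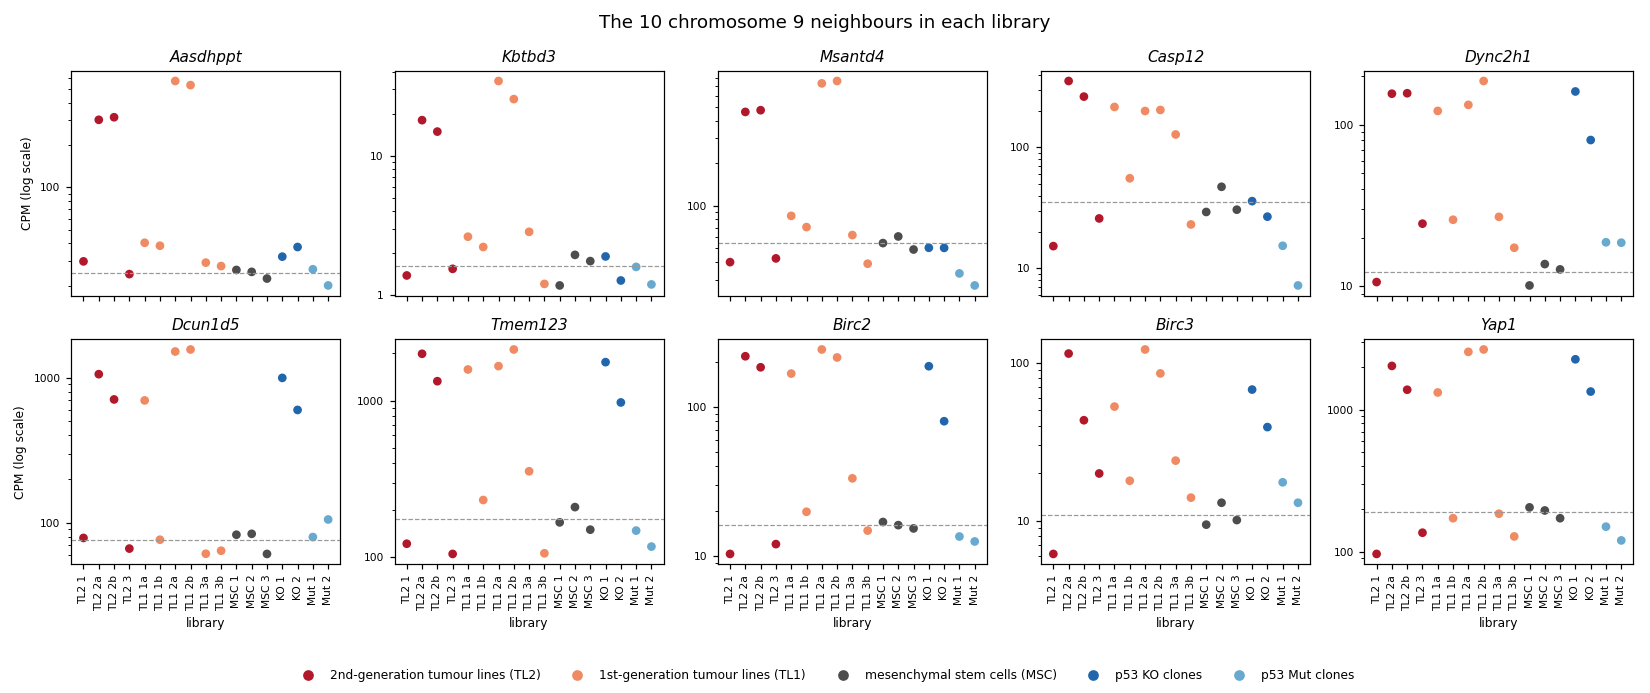
CPM of each of the 10 genes (vertical log axis, ranges differ between panels) in the 17 libraries, TL2, TL1, MSC, KO and Mut from left to right; the dashed line is the MSC mean. For Yap1, Birc2, Tmem123, Dcun1d5 and Dync2h1 the same 7 libraries stand apart at the top, the 4 lines with number 2, TL1 1a and the 2 KO clones.

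Birc2 followed the same libraries. It measured 218 CPM in TL2 2a, 184 CPM in TL2 2b, 242 CPM in TL1 2a, 214 CPM in TL1 2b and 167 CPM in TL1 1a. The other lines had 10.4 CPM (TL2 1), 12.1 CPM (TL2 3), 19.9 CPM (TL1 1b), 33.3 CPM (TL1 3a) and 14.9 CPM (TL1 3b), and the MSC libraries 17, 16.2 and 15.4 CPM. TL1 3a, at 2.05 times the MSC mean, lay between the high lines and the rest. Its paralogue Birc3 was 114 CPM in TL2 2a, 43.2 CPM in TL2 2b, 121 CPM in TL1 2a, 85.4 CPM in TL1 2b and 52.7 CPM in TL1 1a, against 9.45, 13 and 10.1 CPM in MSC. Birc2 and Birc3 share stretches of coding sequence, and how the counting treated reads that fit both is not given in the sources used here, so some counts may have been split between them.

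Tmem123 encodes a mucin-like membrane protein described in human cells as a receptor in oncotic cell death. It ranged from 1330 CPM in TL2 2b to 2120 CPM in TL1 2b over the lines with number 2 and was 1580 CPM in TL1 1a, against 167, 209 and 150 CPM in MSC. Dcun1d5, which helps attach the ubiquitin-like protein NEDD8 to cullins, ranged from 709 CPM in TL2 2b to 1570 CPM in TL1 2b and was 698 CPM in TL1 1a, against 82.4, 83.6 and 60.7 CPM in MSC. Dync2h1, the heavy chain of the dynein motor of cilia, was 133 to 187 CPM in the lines with number 2 and 122 CPM in TL1 1a, against 10.1, 13.7 and 12.7 CPM in MSC. By GENCODE spans Dync2h1 and Dcun1d5 start 73 bases apart on opposite strands. In RefSeq, 1 Dcun1d5 promoter (chr9:7176340-7176589, plus strand) lies below that of Dync2h1 (chr9:7177059-7177308, minus strand), so the transcripts that follow them overlap. Whether the counting used strand is not given in the sources used here, so reads from between them or from the overlap could be assigned to either.

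The far group of 3 genes was high in fewer libraries. Aasdhppt, an enzyme that attaches the phosphopantetheine arm to carrier proteins, measured 302 CPM in TL2 2a, 315 CPM in TL2 2b, 570 CPM in TL1 2a and 533 CPM in TL1 2b, against 25.9, 25.1 and 22.5 CPM in MSC. In TL1 1a, where Yap1 was 6.93 times the MSC mean, Aasdhppt was 40.4 CPM, or 1.65 times. The other 5 lines had 24.2 to 38.5 CPM. Kbtbd3, which encodes a kelch-repeat protein with a BTB domain, was 14.9 to 34.4 CPM in the lines with number 2 and 2.62 CPM in TL1 1a, against 1.17, 1.94 and 1.75 CPM in MSC. Msantd4, which encodes a protein with a Myb-like DNA-binding domain, was 460 to 761 CPM in the lines with number 2 and 84.7 CPM in TL1 1a, against 54.4, 60.6 and 49.0 CPM in MSC.

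Casp12, a caspase of the inflammatory group linked in mouse to stress of the endoplasmic reticulum, lies between the far group and Dync2h1. It was 354 CPM in TL2 2a, 263 CPM in TL2 2b, 200 CPM in TL1 2a, 204 CPM in TL1 2b and 216 CPM in TL1 1a, against 29.3, 47.3 and 30.6 CPM in MSC. TL1 3a had 128 CPM, or 3.59 times the MSC mean, the highest fold of any of the 10 genes in that line, where Yap1 was 0.966 times the MSC mean. In TL1 3a, 5 of the 10 genes reached 2-fold, at 2.02 to 3.59 times the MSC mean, and none reached 4-fold.

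How many of the 10 genes reached 2-fold or more of the MSC mean was counted in each library as a description. The genes were chosen on these levels, and the share of all genes at 2-fold or more was not counted. All 10 genes reached 2-fold in TL2 2a, TL2 2b, TL1 2a and TL1 2b, with median folds of 11.2, 8.91, 13.4 and 13.9. In TL1 1a 7 of 10 did, from Casp12 to Yap1, with a median over all 10 genes of 6.49. In each KO clone 6 of 10 did, from Dync2h1 to Yap1, with medians over all 10 genes of 8.11 in KO clone 1 and 4.28 in KO clone 2. In TL2 1, TL2 3, TL1 1b, TL1 3b, the Mut clones and MSC at most 1 of 10 did, Dync2h1 in TL2 3 (2.01) and TL1 1b (2.12).

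Folds also differed between the genes of a line. In TL1 2a the fold ran from 5.61 for Casp12 to 23.3 for Aasdhppt, and in TL1 2b from 5.70 to 21.8 for the same 2 genes. In TL2 2a it ran from 8.41 for Msantd4 to 14.1 for Dcun1d5, and in TL2 2b from 3.98 for Birc3 to 12.9 for Dync2h1. Levels per kilobase of exon let the genes be ranked against each other. In MSC the mean CPM per kilobase was 56.5 for Tmem123, 24.6 for Dcun1d5, 20.6 for Yap1, 11.8 for Msantd4, 9.30 for Casp12, 8.60 for Aasdhppt, 3.54 for Birc2, 2.17 for Birc3, 0.743 for Dync2h1 and 0.693 for Kbtbd3. The ranges over MSC libraries overlapped for Dcun1d5 (19.7 to 27.2) and Yap1 (18.6 to 22.2), for Casp12 (7.63 to 12.3) and both Msantd4 and Aasdhppt, and for Dync2h1 (0.619 to 0.835) and Kbtbd3 (0.501 to 0.830), so these neighbours in the order did not differ beyond their spread.

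**Figure D2:**
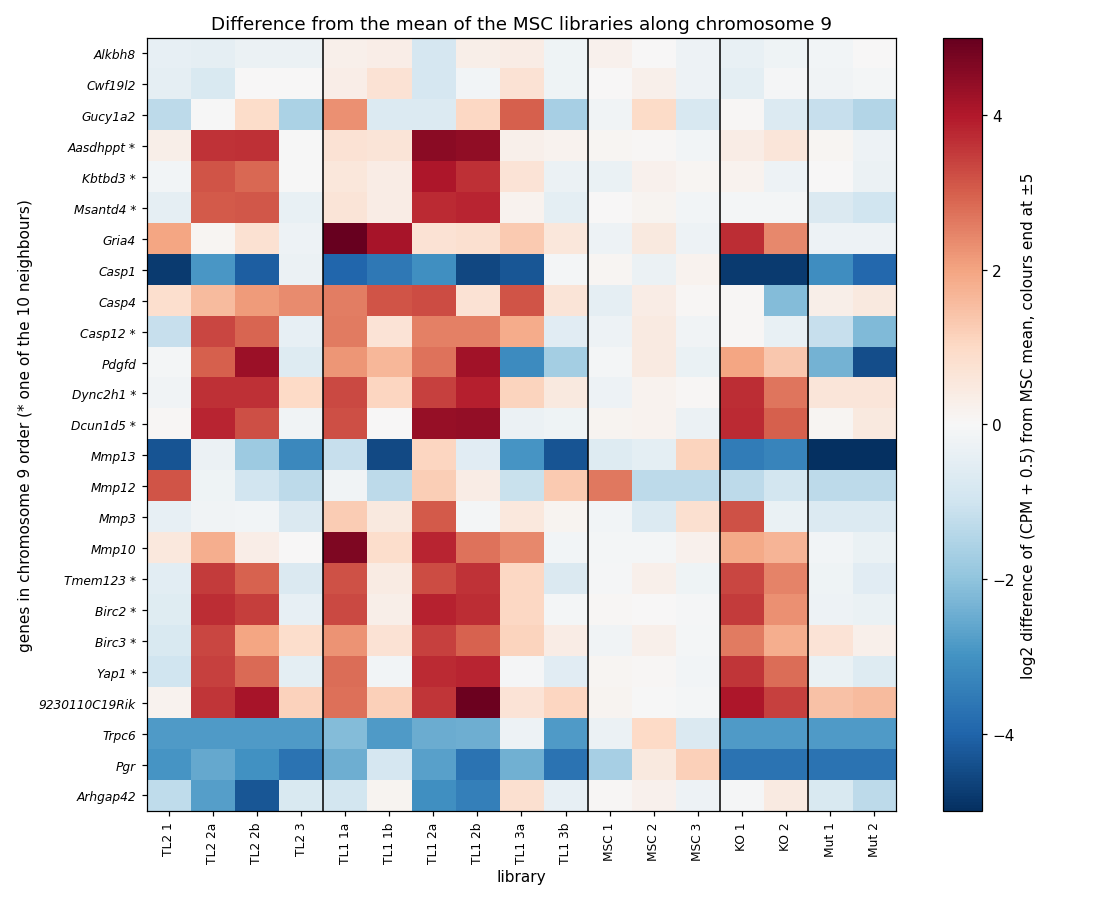
Log2 difference of (CPM + 0.5) from the MSC mean for the 10 genes (asterisks) and the 15 other tested genes of chromosome 9 up to 12 Mb, in chromosome order from top to bottom, with libraries ordered TL2, TL1, MSC, KO and Mut. Red blocks span Aasdhppt to 9230110C19Rik in the 4 lines with number 2, with other colours at Gria4, Casp1 and several Mmp genes. Among the 10 genes they start lower down in TL1 1a and in the KO clones. Gria4 is also red in TL1 1a and the KO clones, as Gucy1a2 is in TL1 1a.

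The genes around the 10 showed where the raised stretch ended. Towards the start of the chromosome, Alkbh8, a tRNA methyltransferase, and Cwf19l2, a gene linked to RNA splicing, were not raised in the lines with number 2. Alkbh8 lay at 0.537 to 1.21 times the MSC mean there. Gucy1a2, the tested gene next to Aasdhppt on that side, lay at 0.431 to 2.02 times there. It lay at 0.368 to 1.91 times in single MSC libraries and at 5.07 times in TL1 1a. Cwf19l2 (chr9:3403592-3479236) had 10.7 CPM in TL2 2a, 18.4 CPM in TL2 2b, 9.88 CPM in TL1 2a and 16.8 CPM in TL1 2b, against 18.3, 21.7 and 15.3 CPM in MSC. On the other side of Yap1, 9230110C19Rik (chr9:8021672-8042823), which RefSeq names Cfap300 and which belongs to the cilium-associated proteins, had 87.6 CPM in TL2 2a, 126 CPM in TL2 2b, 86.0 CPM in TL1 2a and 217 CPM in TL1 2b, against 7.45, 6.70 and 6.38 CPM in MSC. Arhgap42 (chr9:8994329-9239101), which encodes a GTPase-activating protein, was lower in those lines, at 5.76, 1.68, 4.54 and 3.38 CPM in the same order, against 43.0, 48.1 and 34.4 CPM in MSC. The ranges of these lines and MSC did not overlap for 9230110C19Rik or Arhgap42.

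Within the stretch not every gene was raised. Pdgfd, a ligand of platelet-derived growth factor receptor beta, lies between Casp12 and Dync2h1 and had 154 CPM in TL2 2a, 382 CPM in TL2 2b, 129 CPM in TL1 2a and 363 CPM in TL1 2b, against 18.1, 26.0 and 14.9 CPM in MSC. Casp1, the caspase that matures interleukin-1 beta, was at most 1.29 CPM in those 4 lines and 10.7 to 14.9 CPM in MSC. It was also at most 0.650 CPM in TL2 1, TL1 1a, TL1 1b and TL1 3a, and 10.5 and 12.2 CPM in TL2 3 and TL1 3b. Mmp1a, Mmp1b, Mmp7, Mmp8, Mmp20 and Mmp27, genes of matrix metalloproteinases, had at most 5 counts in any of the 17 libraries.

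**Figure D3:**
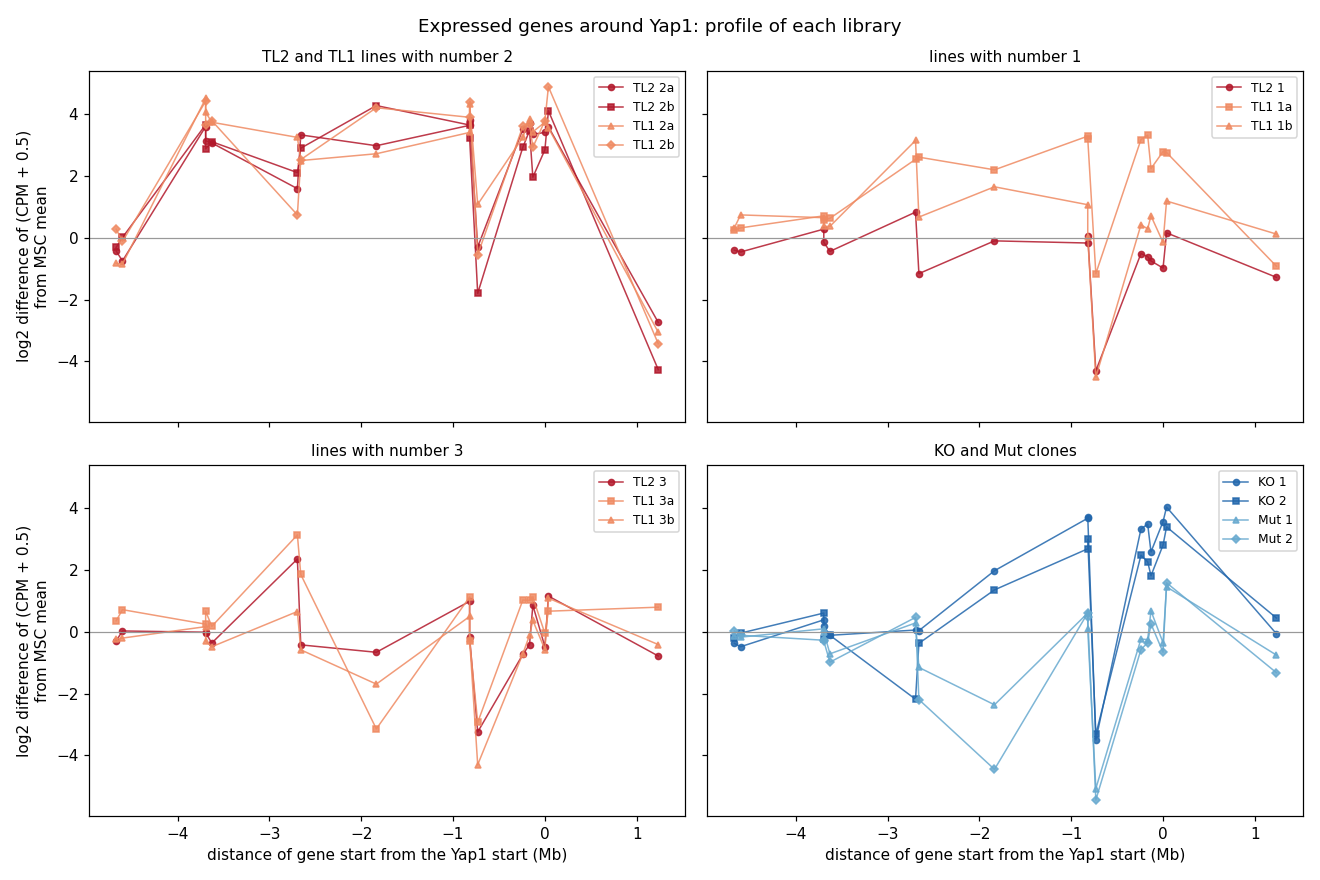
In 4 panels, log2 difference of (CPM + 0.5) from the MSC mean (vertical axis) for genes averaging at least 5 CPM, against the distance of each gene's start from the Yap1 start in Mb (horizontal axis), 1 line per library. In the lines with number 2 the profile is up from Aasdhppt to 9230110C19Rik and down at Arhgap42, with a dip at Mmp13 between them, while TL1 1a leaves the MSC level nearer to Yap1 and the KO clones nearer still.

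Set against all 17 libraries, the genes whose profile was most like that of Yap1 were mostly its neighbours. Likeness was the root mean square difference between log2 CPM profiles, each centred on its own mean, among 10558 genes averaging at least 5 CPM. The closest were Birc2 (0.349), Dcun1d5 (0.351), Tmem123 (0.374), Dync2h1 (0.571), 9230110C19Rik (0.743), Birc3 (0.787), AK129341 (0.874), Syt8 (0.919), 1190005I06Rik (0.970) and Osgin1 (1.00). Of these 10, 6 lie on chromosome 9 below 12 Mb; AK129341 is not placed by the annotation used, and the other 3 lie on chromosomes 7 and 8. Msantd4, Aasdhppt, Kbtbd3 and Casp12 came at ranks 14, 15, 25 and 36. The 10 genes most like Birc2 included 6 of chromosome 9, led by Tmem123 (0.254) and Yap1 (0.349). These points share libraries and scaling, and the 10 genes were chosen on the same profiles.

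A scan of 12271 overlapping windows of 8 expressed neighbouring genes over the whole genome placed the stretch among the rest. Each window was ranked by its median log2 difference from MSC. Only windows lying wholly from Aasdhppt to 9230110C19Rik were taken for the stretch. The best of them came first of all windows in TL2 2a (3.38), TL2 2b (3.00), TL1 2a (3.49) and TL1 2b (3.27). There the highest window outside chromosome 9 below 12 Mb reached 1.91, 2.08, 2.04 and 2.25. The best window of the stretch came at rank 6 in TL1 1a (3.20), 8 in KO clone 1 (3.26) and 16 in KO clone 2 (2.04). In the other libraries its rank lay between 195 and 9855.

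Tumour lines were compared with MSC to ask what changes when these stem cells form tumours. Averaged over both generations, the 10 genes had a median log2 change of 2.56, against 0.10 over all 13262 genes tested. Yap1 differed by 2.46 (SE 1.20) and Birc2 by 2.80 (SE 1.18) on the log2 scale, with 10 tumour lines of which 5 were high. With the label number as a block the changes were smaller, at 0.99 for Yap1 and 1.52 for Birc2. Over the 10 genes they ran from 0.72 for Msantd4 to 2.01 for Dync2h1. The block assumes that MSC share the effect of the number. Yet MSC deviated little with the lines of their number (r of -0.0319 to 0.201, across genes). Whether the smaller changes come from that assumption was not tested. The edgeR quasi-likelihood test called 0 of the 10 at a Benjamini-Hochberg adjusted p under 0.05, with 7 at an unadjusted p under 0.05, while it called 3.86% of all genes higher and 4.79% lower. DESeq2 called 8 of the 10 higher. A fit by label number, chosen after the data were seen, called 1 of the 10 higher in lines with number 1 (Dync2h1), 10 in lines with number 2 and 0 in lines with number 3, beside 8.72%, 8.03% and 5.96% of all genes. Since the genes were chosen on these libraries, nothing is read from these counts. With library totals in place of TMM, the split over all genes was 680 higher and 547 lower, against 512 higher and 635 lower, and the median log2 change of all genes was 0.17.

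Between the generations, the 10 genes had a median log2 change of -0.20 in TL2 minus TL1, against 0.02 over all genes, and both generations held high and low lines. Yap1 differed by -0.36 (SE 1.00) and Birc2 by -0.12 (SE 0.949), and with the label number as a block by -0.94 and -0.93. No gene of the 10 was called by edgeR, and 0.0% of all genes were. Over all genes 246 had an unadjusted p under 0.05, and DESeq2 called 3, none of them among the 10.

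KO clones were compared with Mut clones to ask what depends on mutant p53 in tumour-line cells. The genes nearest to Yap1 were several times higher in both KO clones. Yap1 had 2260 and 1340 CPM in KO clones, against 150 and 120 CPM in Mut clones, and Birc2 had 187 and 80.2 CPM in KO clones, against 13.6 and 12.6 CPM in Mut clones. Tmem123 had 1760 and 973 CPM in KO clones, against 148 and 117 CPM in Mut clones. Dcun1d5 had 999 and 600.0 CPM in KO clones, against 79.4 and 105 CPM in Mut clones. Dync2h1 had 161 and 80.5 CPM in KO clones, against 18.7 and 18.6 CPM in Mut clones, and Birc3 had 67.5 and 39.1 CPM in KO clones, against 17.5 and 13 CPM in Mut clones. In each of these genes KO clone 1 was the higher of the KO clones. The genes were chosen with these libraries known, so the separation of the clone groups is a description only.

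The remaining 4 genes were close to the MSC level in KO clones. Casp12 had 36.0 and 26.8 CPM in KO clones, against 15.4 and 7.24 CPM in Mut clones, which lay below the MSC libraries. Msantd4 had 50.4 and 50.3 CPM in KO clones, against 33.2 and 27.3 CPM in Mut clones. Aasdhppt had 32.2 and 37.7 CPM in KO clones, against 26.2 and 20.1 CPM in Mut clones. Kbtbd3 had 1.89 and 1.27 CPM in KO clones, against 1.59 and 1.19 CPM in Mut clones, and here the groups overlapped.

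**Figure D4:**
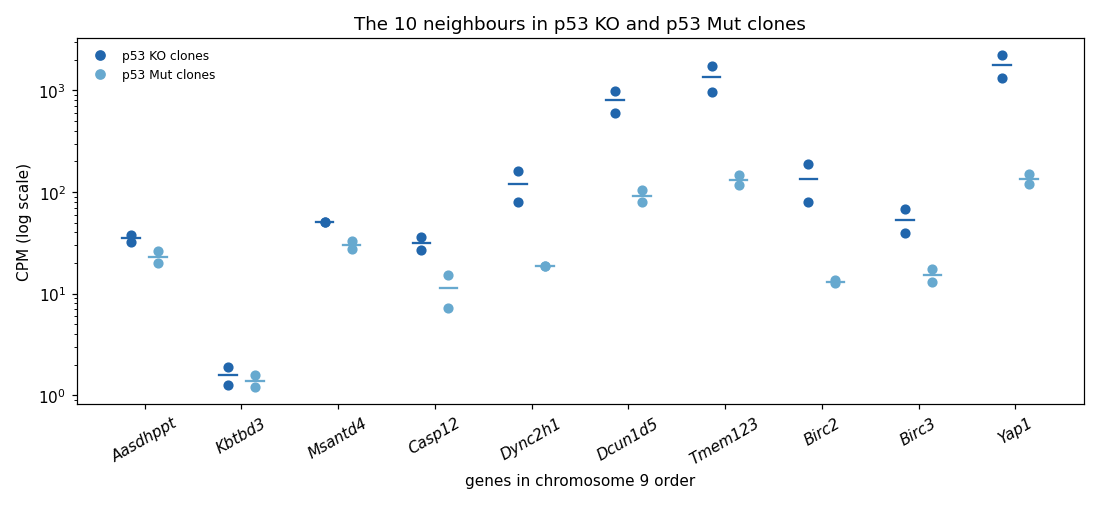
CPM (vertical log axis) of the 10 genes in chromosome order in KO clones (left of each pair, dark) and Mut clones (right, light); points are clones and short lines their means. The 2 groups are widely separated from Dync2h1 to Yap1 and close together from Aasdhppt to Msantd4.

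In the fit of the 4 clones the log2 change was 3.75 (SE 0.332) for Yap1, 3.37 (SE 0.441) for Birc2, 3.38 (SE 0.350) for Tmem123 and 3.14 (SE 0.320) for Dcun1d5. It was 2.71 (SE 0.366) for Dync2h1, 1.82 (SE 0.345) for Birc3, 1.48 (SE 0.410) for Casp12, 0.75 (SE 0.234) for Msantd4, 0.61 (SE 0.263) for Aasdhppt and 0.19 (SE 0.549) for Kbtbd3. Of the 10, 7 were called higher and 0 lower by edgeR, beside 14.2% of all 12238 genes called higher and 12% lower; as the genes were chosen with these libraries known, the count supports nothing. Without Mut clone 2, 3 of the 10 were called, and with all 17 libraries in 1 fit 0 were. Krt18, an epithelial keratin gene, moved with the clone groups, with 0.0797 to 0.236 CPM in KO clones and 34.1 to 110 CPM in Mut clones, and the 4 epithelial markers summed to 0.551 to 1.12 CPM in KO clones and 35.1 to 111 CPM in Mut clones. Not every epithelial marker did so, as Cdh1 was 0.236 to 0.478 CPM in KO clones and 0.0725 to 0.398 CPM in Mut clones. The stromal markers summed to 2400 to 2470 CPM in KO clones and 1180 to 1550 CPM in Mut clones. Of these, Pdgfrb, Cxcl12, Thy1 and Col1a1 were higher in KO clones and Pdgfra, Eng, Nt5e and Lepr lower, while Col1a2 and Vcam1 overlapped. The part of the markers in the result was not tested. From these labels, p53 status and the line of origin of the clones cannot be told apart.

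Of the 28 other genes of the chromosome up to 12 Mb, 9 had enough counts to be tested in the clones, and 6 were called higher in KO clones. Over all genes 14.2% were called higher. Gria4, Mmp10, Mmp13 and Pdgfd passed the count filter only with the help of the KO clones, where they were high, so their calls support nothing. All but Arhgap42 lie within or next to the stretch that was picked because its levels differed between libraries. Pdgfd had 76.9 and 50.0 CPM in KO clones, against 3.33 and 0.398 CPM in Mut clones (log2 change 5.07, SE 0.893, edgeR adjusted p = 0.0185). 9230110C19Rik had 120 and 76.7 CPM in KO clones, against 19.7 and 21.6 CPM in Mut clones (2.27, SE 0.287, edgeR adjusted p = 0.00325). Arhgap42 had 39.7 and 56.9 CPM in KO clones, against 24.5 and 16.3 CPM in Mut clones (1.26, SE 0.317, edgeR adjusted p = 0.0305). Gria4, a glutamate receptor subunit, had 124 counts summed over KO clones and 0 over Mut clones, at least 39.8-fold higher with a floor of 3 counts over the group. Mmp10 had 42 counts over KO clones, against 1 over Mut clones, a ratio of 40.4 (exact 95% counting interval 6.87 to 1630), and Mmp13 had 39 over KO clones, against 2 over Mut clones, a ratio of 18.8 (4.86 to 160). With 1 clone left out, 9230110C19Rik and Gria4 were called each time, Pdgfd was not called without KO clone 1 or without KO clone 2, and Arhgap42, Mmp10 and Mmp13 lost their calls in all 4 such fits. With all 17 libraries in 1 fit none of the 6 was called.

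In the tumour lines 15 of the 28 were tested, and 1 was called higher and 2 lower than in MSC. Over all genes 3.86% were called higher and 4.79% lower. Casp4, an inflammatory caspase, averaged 38.2 ± 24.0 CPM in tumour lines and 7.36 ± 2.17 CPM in MSC (SD, n = 10 and 3; log2 change 2.28, SE 0.624, edgeR adjusted p = 0.0404). Trpc6, a cation channel gene, averaged 0.308 ± 0.774 CPM in tumour lines and 3.60 ± 2.71 CPM in MSC (-5.68, SE 1.36, edgeR adjusted p = 0.0329). Pgr, the progesterone receptor gene, averaged 0.608 ± 0.901 CPM in tumour lines and 8.03 ± 6.35 CPM in MSC (-3.97, SE 1.06, edgeR adjusted p = 0.0362). Trpc6 and Pgr passed the count filter only with the help of MSC, where they were high, so their calls support nothing. Casp4 lies beside Casp12, within the stretch. That stretch was picked because its levels differed between libraries, so the Casp4 call supports nothing. None of the 3 calls was kept without MSC 1, without MSC 2, without MSC 3 or without TL1 1a, and 1 was kept without TL2 2a or without TL2 2b. 9230110C19Rik, with a log2 change of 3.22 (SE 1.14), was not called (edgeR adjusted p = 0.0954), nor was Pdgfd at 2.69 (SE 1.44; edgeR adjusted p = 0.253).

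YAP works through TEAD factors, and 44 genes of the Hippo pathway were counted beside Yap1, comprising its kinases and their regulators, TEAD partners and widely used YAP targets. In tumour lines 4 were called higher and 5 lower than in MSC, beside 3.86% and 4.79% of all genes. The median log2 change was -0.02 against 0.10 over all genes. Among the targets, Ankrd1, a muscle and stress-response gene, averaged 632 ± 256 CPM in tumour lines and 134 ± 141 CPM in MSC (log2 change 2.22, SE 0.614, edgeR adjusted p = 0.0423). Foxf2, a forkhead factor, averaged 51.3 ± 34.6 CPM in tumour lines and 9.83 ± 2.07 CPM in MSC (2.44, SE 0.637, edgeR adjusted p = 0.0341). F3, which encodes tissue factor, fell to 31.9 ± 8.09 CPM in tumour lines, against 125 ± 37.4 CPM in MSC (-1.92, SE 0.245, edgeR adjusted p = 0.000664). Amotl2, an angiomotin that is both a regulator and a target of YAP, fell to 183 ± 83.7 CPM in tumour lines, against 539 ± 73.4 CPM in MSC (-1.58, SE 0.309, edgeR adjusted p = 0.00854).

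Among the factors that act with or above YAP, Tead4 averaged 14.6 ± 7.51 CPM in tumour lines and 3.68 ± 0.761 CPM in MSC (log2 change 2.05, SE 0.542, edgeR adjusted p = 0.0355). Fat4, a giant cadherin upstream of the pathway, fell to 13 ± 9.29 CPM in tumour lines, against 93.4 ± 26.8 CPM in MSC (-2.79, SE 0.644, edgeR adjusted p = 0.0199). The 3 other calls were Stk3, higher, and Taok2 and Arhgef17, lower. Of the 9 calls, 2 remained without MSC 1 and 3 without MSC 3, and F3 and Taok2 were called whichever library was left out. Tead4 kept its call in 6 and Ankrd1 in 4 of the 13 fits that left out 1 library. TL2 minus TL1 had 0 calls in the list, with 0 at an unadjusted p under 0.05.

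The levels of 3 other well-known targets, picked for naming after their values were seen, did not follow those of Yap1 from line to line. Ctgf, a matrix-associated growth factor gene, was 182 CPM in TL2 2a, 60.2 CPM in TL2 2b, 119 CPM in TL1 2a and 423 CPM in TL1 2b. In lines with number 1 it was 72.5 CPM in TL2 1, 82.3 CPM in TL1 1a and 90.3 CPM in TL1 1b, and in lines with number 3 it was 286 CPM in TL2 3, 77.1 CPM in TL1 3a and 349 CPM in TL1 3b. The MSC libraries had 538, 661 and 460 CPM of Ctgf, above every tumour line, though the difference was not called (log2 change -1.67, SE 0.549, edgeR adjusted p = 0.0754). Cyr61, a gene of the same family, was 485 to 1190 CPM in the lines with number 2, 531 to 1100 CPM in those with number 1 and 728 to 1350 CPM in those with number 3, against 870, 1020 and 765 CPM in MSC. Axl, a receptor tyrosine kinase gene, was 396 to 740 CPM in the lines with number 2, 570 to 633 CPM in those with number 1 and 711 to 1590 CPM in those with number 3, against 777, 934 and 563 CPM in MSC. For Cyr61 and Axl the ranges of lines with number 2 and MSC overlapped. Among tumour lines, Gadd45b and Ajuba, also picked after their values were seen, were highest in the lines with number 2. Gadd45b, another target, was 59.0 to 93.7 CPM there and 20.5 to 52.7 CPM in the other tumour lines, with 43.7 CPM in TL1 1a. KO clones had 71.2 and 126 CPM of it, against 27.8 and 50.9 CPM in Mut clones, a difference not called. Ajuba was 151 to 197 CPM in lines with number 2 and 56.5 to 119 CPM in the others. Wwc2 and Lats2, also named after their values were seen, followed Yap1 in part. Wwc2 was 152 to 289 CPM in lines with number 2 and 81.6 to 141 CPM in the others. Lats2 was 74.1 to 105 CPM in lines with number 2, 80.5 CPM in TL1 1a and 36.0 to 78.9 CPM in the remaining lines. MSC had 82.4 to 111 CPM of Lats2. Both genes were called higher in KO clones (edgeR adjusted p = 0.00164 and 0.00713) but not with all 17 libraries in 1 fit. In the clones Cyr61 was called higher, as Yap1 was, with 728 and 898 CPM in KO clones, against 430 and 403 CPM in Mut clones (log2 change 0.98, SE 0.212, edgeR adjusted p = 0.0187), a call kept in 1 of the 4 fits that left out a clone. Axl was called lower there, with 562 and 559 CPM in KO clones, against 1740 and 1010 CPM in Mut clones (log2 change -1.28, SE 0.297, edgeR adjusted p = 0.0236), also kept in 1 of 4.

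**Figure D5:**
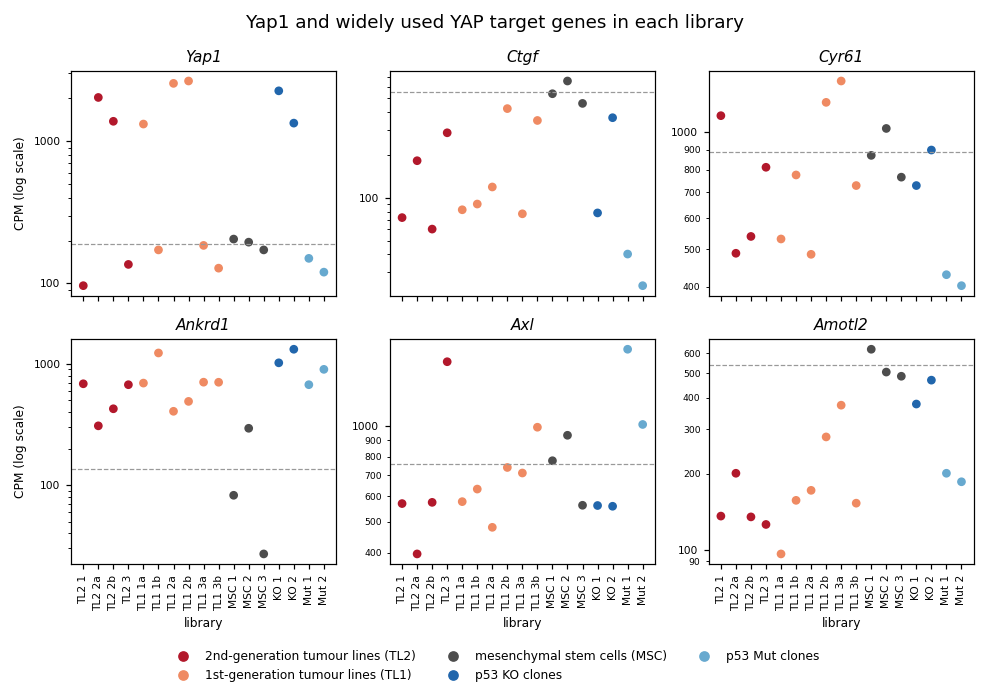
CPM (vertical log axis, ranges differ between panels) of Yap1 and 5 genes widely used as YAP targets in the 17 libraries, ordered TL2, TL1, MSC, KO and Mut; the dashed line is the MSC mean. The 7 libraries that stand apart for Yap1 do not stand apart in any of the other 5 panels.

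In the clones 8 of the 44 Hippo genes were called higher and 9 lower in KO clones, with a median log2 change of -0.01 against 0.00 over all genes. Vgll3, a cofactor of TEAD factors, had 4980 counts over KO clones and 1 over Mut clones, a ratio of 4790 (exact 95% counting interval 859 to 189000). Igfbp3, an insulin-like growth factor binding protein gene, averaged 40.5 ± 26.4 CPM in KO clones and 0.159 ± 0.225 CPM in Mut clones (SD, n = 2 each; log2 change 7.98, SE 1.03, edgeR adjusted p = 0.0072). Tead3 averaged 47.7 ± 3.60 CPM in KO clones and 3.84 ± 0.819 CPM in Mut clones (3.64, SE 0.298, edgeR adjusted p = 0.000611). Arhgef17, a guanine nucleotide exchange factor gene, fell to 0.755 ± 0.510 CPM in KO clones, against 73.9 ± 24.5 CPM in Mut clones (-6.58, SE 0.527, edgeR adjusted p = 0.000653). Dchs1, the cadherin ligand of Fat4, fell to 0.158 ± 0.00136 CPM in KO clones, against 16.1 ± 9.43 CPM in Mut clones (-6.56, SE 0.703, edgeR adjusted p = 0.00164). F3 fell to 5.63 ± 2.40 CPM in KO clones, against 57.5 ± 20.8 CPM in Mut clones (-3.33, SE 0.424, edgeR adjusted p = 0.00354). Vgll3 and Igfbp3 passed the count filter only with the help of the KO clones, and Arhgef17 and Dchs1 only with the help of the Mut clones. They were high there, so the calls of these genes support nothing. Ctgf had 78.2 and 365 CPM in KO clones, against 40.2 and 24.1 CPM in Mut clones, and was not called (2.80, SE 0.808, edgeR adjusted p = 0.0653). Without Mut clone 2 or without KO clone 2, 11 genes of the list were called; all 6 genes named here before Ctgf were called whichever clone was left out, but Igfbp3 and Dchs1 were not called with all 17 libraries in 1 fit.

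The cIAP proteins act in tumour necrosis factor and NF-kB signalling, for which 35 other genes were counted. In tumour lines 3 were called higher and 1 lower than in MSC, beside 3.86% and 4.79% of all genes. The median log2 change was 0.25 against 0.10 over all genes. Cyld, a deubiquitinase that restrains NF-kB, averaged 159 ± 66.3 CPM in tumour lines and 52.3 ± 11.7 CPM in MSC (log2 change 1.62, SE 0.402, edgeR adjusted p = 0.0276). Tnfrsf12a, the receptor for the cytokine TWEAK, averaged 495 ± 144 CPM in tumour lines and 236 ± 33.5 CPM in MSC (1.11, SE 0.286, edgeR adjusted p = 0.0331). Ripk3, a kinase of necroptosis, fell to 0.907 ± 2.36 CPM in tumour lines, against 26.7 ± 5.06 CPM in MSC (-5.84, SE 1.11, edgeR adjusted p = 0.00759). It passed the count filter only with the help of MSC, where it was high, so its call supports nothing. Ripk3 was called by edgeR whichever library was left out but not by DESeq2, and 1, 2 and 1 of the 4 calls remained without MSC 1, MSC 2 and MSC 3. TL2 minus TL1 had 0 calls in this list by edgeR, with 1 gene at an unadjusted p under 0.05.

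In the clones 34 of the 35 were tested, and 2 were called higher and 2 lower in KO clones. Tnfaip3, a ubiquitin-editing brake on NF-kB, averaged 38.9 ± 6.67 CPM in KO clones and 15.2 ± 1.84 CPM in Mut clones (SD, n = 2 each; log2 change 1.37, SE 0.266, edgeR adjusted p = 0.0135). Traf1, an adaptor that works with Traf2 and the cIAP proteins, fell to 0.514 ± 0.164 CPM in KO clones, against 6.78 ± 4.37 CPM in Mut clones (-3.68, SE 0.700, edgeR adjusted p = 0.0126). Traf1 passed the count filter only with the help of the Mut clones, where it was high, so its call supports nothing. Cflar, a decoy that blocks caspase-8, fell to 39.1 ± 8.06 CPM in KO clones, against 84.6 ± 12.8 CPM in Mut clones (-1.10, SE 0.256, edgeR adjusted p = 0.0238). Of the 4 calls, 1 remained without Mut clone 2, 1 without KO clone 2 and 0 without KO clone 1. Cflar lost its call in all 4 such fits, and with all 17 libraries in 1 fit none of the 4 was called. Xiap, the related inhibitor of apoptosis encoded elsewhere in the genome, had 56.6 and 58.1 CPM in KO clones, against 83.6 and 62.7 CPM in Mut clones, and was not called (-0.34, SE 0.237, edgeR adjusted p = 0.329).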

How the data were processed

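Total RNA was sequenced as single-end 60-base reads, per the labels' protocols. The submitters' processing notes name build mm10, the aligner TopHat2 2.0.10, the counter HTSeq 0.6.1p1, the trimmer cutadapt and, besides these, DESeq2 1.6.3. Which annotation and strand setting served the counting is not given in the sources used here. Whole-number counts for 23420 genes make up the deposited table. Of its columns, 4 matched no sample and were not used.

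Counts were scaled with TMM and tested by quasi-likelihood in edgeR 4.0.16 (limma 3.58.1, R 4.3.3) after filterByExpr, with Benjamini-Hochberg adjustment over all genes tested and a threshold of 0.05. MSC, TL1 and TL2 shared 1 fit of 13 libraries, and the clones had a fit of 4. The fit of 13 took the tumour lines as independent, although TL2 lines descend from first-generation lines. Its p-values for tumour lines minus MSC may therefore be too small. Standard errors were computed as the absolute log2 change divided by the square root of the F statistic. The fits were first tested on simulated data.

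Alternatives were RLE factors, library totals, no filter, DESeq2 1.42.0, the label number as a block, each library left out, and all 17 libraries in 1 fit for the clones; a fit by label number was added after seeing the data. Lines with the same number deviated together between TL1 and TL2 (r = 0.477, 0.375 and 0.490 for numbers 1, 2 and 3, across genes), which met the limit set for pairing the generations; MSC did not meet it with every number. Libraries of a group differed by more than sampling noise (chi-square per degree of freedom of 30.5 or more). Counting intervals and floors cover counting error only.

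Gene positions come from GENCODE M21 and RefSeq GRCm38.p6, which share the mm10 coordinates. Genes named beside the 10 are Trp53, the tested genes of chromosome 9 up to 12 Mb and the 10 most like Yap1 or Birc2. Up to 6 called genes of each list per comparison, by size of log2 change, are named too. Ctgf, Cyr61, Axl, Gadd45b, Ajuba, Wwc2, Lats2 and Xiap were added after their values were seen. Members and lists were chosen with earlier results of these data known. Some genes of the lists are counted but not reported by name here.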

Additional observations from a re-analysis of the deposited data

How the results depend on the processing

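Under 9 alternatives in the clones and 18 in each of the other 2 comparisons, no called gene of the 10 turned its direction. For tumour lines minus MSC all 180 log2 changes of the 10 genes were positive, but with the number as a block they were 0.72 to 2.01, against 2.11 to 2.96 without it. That block assumes that MSC share the effect of the number, and MSC did not meet the limit for pairing with every number. The number of genes called by edgeR for tumour lines minus MSC, 1147, became 2275 with DESeq2, and 304 to 1532 with 1 library left out. In the fit by label number it was 2306 for lines with number 1 and 2410 for lines with number 2. Of the 10 genes, 0 were called with all lines, 8 with DESeq2, 1 in lines with number 1 and 10 in lines with number 2. Leaving out 1 library gave 0 each time. As the genes and the fit by number were chosen on these libraries, nothing is read from these counts. Hippo genes called were 2 to 9, cIAP and NF-kB genes 1 to 5 and flanking genes 0 to 3 with 1 library left out, and DESeq2 called 6 flanking genes. For TL2 minus TL1, DESeq2 called 3 genes over the table and edgeR 0; leaving out 1 library gave 0. For KO minus Mut clones, 1 fit of all 17 libraries called 820 genes, 0 of the 10, 5 Hippo genes, 0 cIAP and NF-kB genes and 0 flanking genes, against 3200, 7, 17, 4 and 6. With 1 clone left out, 1347 to 1755 genes, 3 to 6 of the 10, 11 to 16 Hippo genes, 1 to 3 cIAP and NF-kB genes and 3 flanking genes were called; the lone clone is then assumed to vary like the other group. The cause of these moves was not tested, except that fits with fewer libraries have fewer degrees of freedom. With library totals the median log2 change of all genes in the clones was -0.13, against 0.00 with TMM. Genes at 2-fold or more in TL2 3, 1 with TMM, were 0 with RLE factors and 2 with library totals, at values close to the limit. With the number as a block, the pairing left 0 of the 10 called, with 1686 genes, 9 Hippo, 5 cIAP and NF-kB and 3 flanking genes called for tumour lines minus MSC and 0 for TL2 minus TL1; Ankrd1 lost its call. At this depth a gene such as Kbtbd3, with 1.17 to 2.84 CPM in 13 libraries, rests on few counts.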
